A study of Rattus norvegicus with 18 samples.

Results

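The untreated hypothalamus of 6 rats is described here, out of 18 rats in the series. Members were chosen by their label alone, as the arrays of the control group, and each array held RNA of 1 rat. All 18 were male Wistar rats, aged 9 weeks at the end, killed by ether inhalation and then decapitated, and 1 operator dissected every hypothalamus under a microscope. Untreated rats were neither restrained nor given a running wheel. The other 12 rats, used here only for a measure of spread, had restraint for 1 to 1.5 h on 5 days a week over 3 weeks (stress, n = 6), or the same restraint plus 4 weeks of free wheel running that began 1 week before it (stress and exercise, n = 6). Per the labels the integrity number of each RNA lay above 7, and the amount labelled is given as both 100 and 200 ng. The control arrays came from 2 slides. Rats 1 and 2 lay on slide 1 and rats 3 to 6 on slide 2, and the 2 slides were scanned on different days, so slide and scan day cannot be told apart.

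The hypothalamus is a small block of nuclei around the third ventricle that couples the brain to the pituitary and to the autonomic nervous system. Its neurons make peptides from larger precursors, which are cut in secretory granules and released into the blood, into the portal vessels of the pituitary, or onto other neurons. Magnocellular neurons send vasopressin and oxytocin to the posterior lobe, parvocellular neurons release hormones that drive or hold back the anterior lobe, and arcuate and lateral neurons set appetite and arousal. The block borders on the thalamus above, the choroid plexus of the ventricle, the meninges below, and the pituitary stalk with its sleeve of endocrine cells, the pars tuberalis.

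Promoter sequences are shown for 2 pairs of genes on which the results turn. The first pair, Oxt and Avp, encodes oxytocin and vasopressin and was among the brightest peptide genes of these rats. The second pair, Cga and Tshb, encodes the 2 subunits of thyroid-stimulating hormone and differed most from rat to rat. Each line runs from 250 bases before to 50 bases after the gene start, on the strand of the gene, from RefSeq (assembly GRCr8). Oxt lies at chr3:138235504-138235803 on the plus strand, Avp at chr3:138248473-138248772 on the minus strand, Cga at chr5:54283090-54283389 on the plus strand and Tshb at chr2:192918005-192918304 on the minus strand. Capitals mark the letters ATAAA, the core of a TATA box, where all of them lie between -40 and -16 from the gene start.
Oxt: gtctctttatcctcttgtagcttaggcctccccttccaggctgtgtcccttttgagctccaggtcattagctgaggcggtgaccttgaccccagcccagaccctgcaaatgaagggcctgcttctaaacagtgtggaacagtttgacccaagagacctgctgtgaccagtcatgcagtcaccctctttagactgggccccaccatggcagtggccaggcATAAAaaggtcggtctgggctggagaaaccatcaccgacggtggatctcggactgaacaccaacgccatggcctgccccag
Avp: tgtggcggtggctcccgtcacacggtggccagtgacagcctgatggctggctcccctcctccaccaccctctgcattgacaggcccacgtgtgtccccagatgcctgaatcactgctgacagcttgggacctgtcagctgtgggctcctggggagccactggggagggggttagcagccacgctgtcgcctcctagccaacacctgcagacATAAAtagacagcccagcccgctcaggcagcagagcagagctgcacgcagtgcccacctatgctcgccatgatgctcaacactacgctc
Cga: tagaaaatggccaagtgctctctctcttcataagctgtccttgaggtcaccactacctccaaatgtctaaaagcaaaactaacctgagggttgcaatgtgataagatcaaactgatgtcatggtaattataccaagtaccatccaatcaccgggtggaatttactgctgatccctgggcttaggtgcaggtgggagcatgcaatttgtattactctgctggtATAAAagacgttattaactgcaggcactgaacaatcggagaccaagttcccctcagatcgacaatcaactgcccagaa
Tshb: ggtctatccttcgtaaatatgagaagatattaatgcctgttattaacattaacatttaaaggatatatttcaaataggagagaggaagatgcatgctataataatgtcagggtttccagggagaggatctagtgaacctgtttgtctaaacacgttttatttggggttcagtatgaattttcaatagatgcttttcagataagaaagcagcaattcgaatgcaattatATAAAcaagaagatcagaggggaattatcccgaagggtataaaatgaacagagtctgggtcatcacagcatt
The match began at -31 in Oxt, -39 in Avp, -28 in Cga and -22 in Tshb. On the gene's own strand, 7 of 29 peptide precursor promoters in the table held these letters inside that window (24.1%), beside 1150 of all 33469 promoters (3.44%). On the opposite strand the counts were 2 of 29 (6.90%) and 788 of 33469 (2.35%). Pomc (-31) and Hcrt (-28) also held them, and Sst did not. In Npy the letters begin at -16, on the edge of the window, and were not counted. A match is a description of letters and was not tied to any level.

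A transcript level here is the log2 processed signal of a probe minus the 75th percentile of its own array, so that 0 is the signal below which 75% of all non-control spots lie. A gene is represented by its brightest probe. Probes bind their targets with different strength, so an order of genes is an order of array signal and not of molecule number. Of 16665 named genes, 12571 (75.4%) were well above background on 6 of 6 control arrays, called detected from here on. Another 2041 genes were detected on 1 to 5 arrays and 2053 (12.3%) on none. Over single probes, 29507 of 45598 (64.7%) were detected on 6 of 6 arrays and 8209 on none. The share of probes well above background ran from 67.6% to 77.7% over the 6 arrays and was highest on the 2 arrays of slide 1. Values after ± are SD over the 6 rats throughout.

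**Figure D1:**
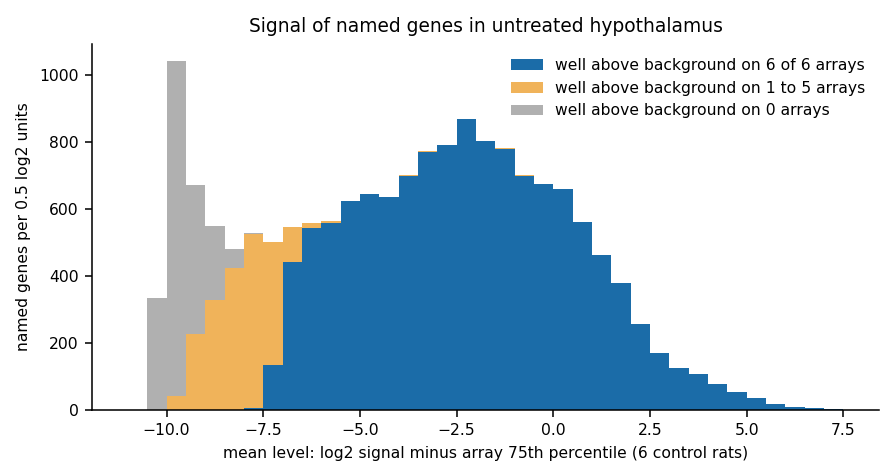
Number of named genes (y axis) by mean level over 6 control rats (x axis, log2 units, bins of 0.5), coloured by how many of the 6 arrays found the gene well above background. The 12571 genes detected on 6 of 6 arrays fill the right of the plot, and the 2053 detected on none pile up at the left.

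The detection flag is a weak test of identity. Of 20 genes typical of other organs, 15 were detected on 6 of 6 arrays, which is the share seen over all genes (75.4%), but at a median level of only -6.34. Ins1, which encodes insulin, stood at -4.58 ± 0.14 and Alb, which encodes serum albumin, at -5.68 ± 0.29. In the other direction, the only probe of Esr1, the oestrogen receptor alpha gene, was above background in no rat (-9.25 ± 0.61), and that of Otp, a transcription factor of the paraventricular nucleus, in 1 of 6. A dim probe therefore gives no measure of absence. The Y-linked genes Ddx3y (-3.88 ± 0.15) and Eif2s3y (-1.76 ± 0.03) were detected in all 6 rats and Xist, which silences the second X chromosome of females, in none (-9.78 ± 0.32). Uty and Usp9y, also Y-linked, were above background in none, and Kdm5d was not analysed here.

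The brightest named probes were dominated by housekeeping, glial and neuronal genes. The lowest of the 30 highest levels was 5.54, and the gene just outside, Pebp1, stood at 5.52. They included 7 ribosomal protein or ribosomal protein-like genes (Rpl41, Rpl24, Rpl37a, Rpl37l1, Rpl19, Rpl35 and Rplp1), the chaperone Hspa8 at 6.58 ± 0.06, the ubiquitin gene Ubb at 6.72 ± 0.05 and the tubulins Tuba1a, Tuba1b and Tubb4b. From glia came the myelin gene Mbp at 6.97 ± 0.09, the astrocyte glycolysis gene Aldoc at 6.12 ± 0.08 and Ndrg2, another astrocyte gene, at 6.16 ± 0.07. Cst3, which encodes cystatin C, reached 6.07 ± 0.08, and the neuronal Uchl1 5.64 ± 0.06. Pmch, the precursor of melanin-concentrating hormone, was the only neuropeptide gene among them, in rank 13 at 6.10 ± 0.09. The widest spread among the 30 was that of Csrnp2 (5.66 ± 0.15), so all 30 were steady from rat to rat.

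Some names in that list rest on 1 of several probes that disagree. Mbp was at 6.97 by its brighter probe and at -2.17 by the other. Csrnp2 (5.66 and -0.24) and Gnas, which encodes a G protein subunit (5.81 down to -2.96), were split in the same way. Among the 30, 7 genes had probes at least 4 log2 units apart. Over all 3671 genes with several probes the median gap was 2.47, and 1031 (28.1%) had a gap of 4 or more. With the probe of median level in place of the brightest, 19 of the 30 kept a place in the top 30. Of the 30 brightest probes, 12 carried no gene name here.

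Peptide precursors of the hypothalamus gave more signal than most genes. Of 41 listed precursor genes 39 had a probe and 35 were detected in all 6 rats, 15 of them at a level of 0 or more. Their median level was -0.09, beside -2.22 over all detected genes, and their median SD was 0.15, beside 0.10. Of these 35 genes, 25 had an SD under 0.2, beside 81.7% of all detected genes, and 3 (Nmu, Cck and Vip) had one of 0.5 or more, beside 2.30%.

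Vasopressin and oxytocin led the peptides of the stress axis. Avp ran from 4.63 to 5.08 over the rats with a median of 4.74 (4.77 ± 0.17, rank 87 of all named genes), highest in rat 6. Oxt ran from 2.90 to 3.05 with a median of 3.02 (3.00 ± 0.06), so its highest and lowest rats differed by 1.11-fold. Crh, the corticotropin-releasing hormone that starts the pituitary-adrenal response, lay between -1.50 and -1.15 with a median of -1.37 (-1.34 ± 0.15). Adcyap1, which encodes the stress peptide PACAP, stood at -1.41 ± 0.17. The urocortins, relatives of Crh, were dimmer, at -4.02 ± 0.17 for Ucn2, -4.46 ± 0.44 for Ucn and -4.86 ± 0.22 for Ucn3, and the binding protein gene Crhbp at -4.06 ± 0.11. Vip, a peptide of the suprachiasmatic clock nucleus, was the variable member of the list and is described further on. All 9 genes of this list were detected in every rat.

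Of 10 receptor and glucocorticoid-handling genes of the same axis, 9 were detected in every rat. The PACAP receptor gene Adcyap1r1 was the brightest at 1.83 ± 0.05. The glucocorticoid receptor gene Nr3c1 stood at -0.74 ± 0.05 and spanned 1.09-fold from lowest to highest rat, and the mineralocorticoid receptor gene Nr3c2 at -2.45 ± 0.12. Hsd11b1, whose enzyme regenerates active glucocorticoid, was at -1.08 ± 0.12. Crhr1 was at -4.23 ± 0.10, Crhr2 at -7.04 ± 0.25, Avpr1a at -4.46 ± 0.08, Oxtr at -6.18 ± 0.31 and Vipr2 at -2.32 ± 0.07. Avpr1b was above background on 4 of 6 arrays.

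All 8 hormones that act on the anterior pituitary or its drive were detected in every rat. Sst, which encodes somatostatin, the brake on growth hormone, was the brightest, from 3.36 to 3.71 with a median of 3.55 (3.53 ± 0.14). Tac3 (0.85 ± 0.15) and Pdyn (0.76 ± 0.07), both made by the neurons that pace gonadotropin release, followed. Trh, the releasing hormone of the thyroid axis, stood at -0.02 ± 0.16, and Npvf, a gonadotropin inhibitor, at -0.09 ± 0.21. Ghrh was at -1.02 ± 0.23 and Gnrh1 at -1.18 ± 0.16. Kiss1 was the dimmest at -6.33 ± 0.29. Their neighbours in this order overlapped from rat to rat for Tac3 and Pdyn, for Trh and Npvf, and for Ghrh and Gnrh1.

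The feeding peptides were likewise detected in all rats, 11 of 11 with a probe (Asip was not analysed here). After Pmch came Gal, which encodes galanin, from 2.28 to 2.66 with a median of 2.52 (2.49 ± 0.15). The satiety precursors Cartpt (1.55 ± 0.15) and Pomc (1.00 ± 0.15) and the hunger peptide Npy (1.34 ± 0.16) lay close together. Agrp, made by the same arcuate neurons as Npy, stood at -0.05 ± 0.21, and Hcrt, the precursor of the arousal peptides orexin A and B, at 0.51 ± 0.13. Nts was at -0.95 ± 0.19, Nucb2 at -1.92 ± 0.10, Qrfp at -5.54 ± 0.41 and Nmu at -4.53 ± 1.04. Rat 4 was the highest for 7 of these 11 genes, beside 15.5% of all detected genes, and rat 1 the lowest for 6, beside 16.2%. There were differences of 1.19-fold to 1.43-fold between extreme rats for Pmch, Gal, Npy, Agrp, Cartpt, Pomc, Nts and Hcrt. Among other peptides, Tac1 stood at 2.47 ± 0.11, Pnoc at 0.99 ± 0.11, Penk at 0.93 ± 0.10, Grp at -1.86 ± 0.08, Nmb at -2.25 ± 0.14 and Npb at -4.67 ± 0.12. Prok2 was above background in no rat, Rln3 in 3, and Npw and Galp in 5.

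**Figure D2:**
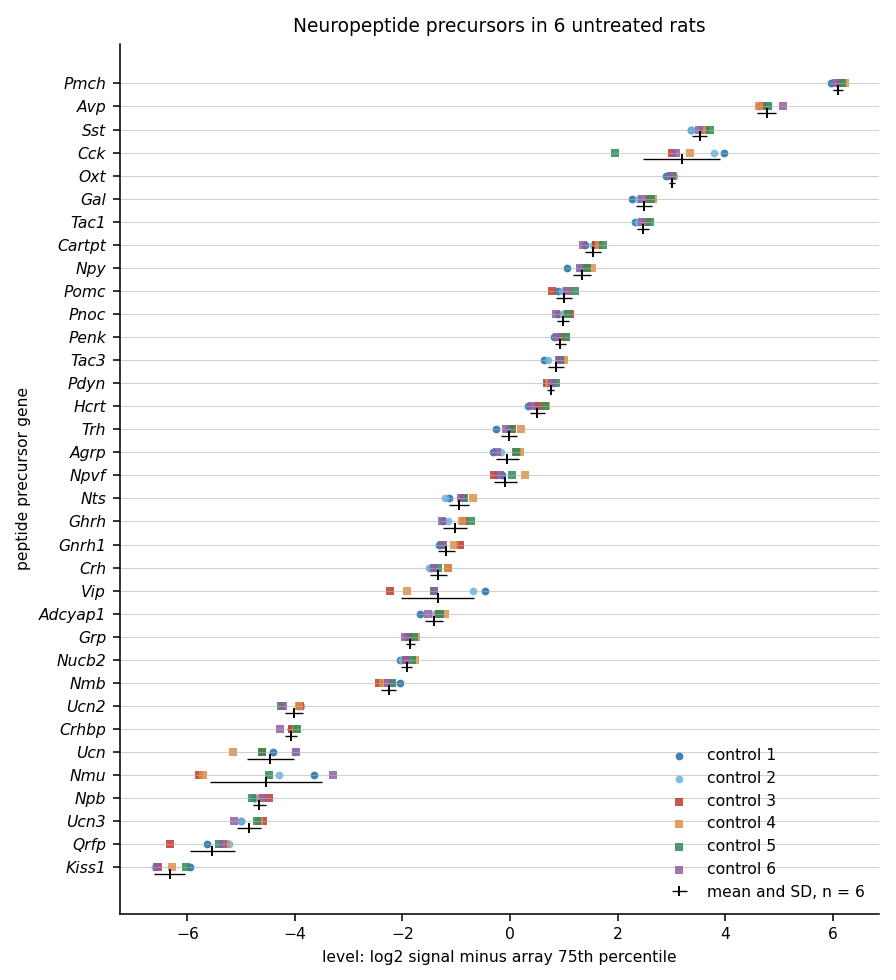
Level of each of 35 detected peptide precursor genes (rows) in each of 6 control rats (points, circles for slide 1 and squares for slide 2), with mean and SD below the points; x axis in log2 units. Pmch and Avp lie at the top, and Cck, Vip and Nmu have the widest scatter.

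Receptors for these peptides gave far less signal than the peptides. Of 12 feeding receptors 11 were detected in every rat, at a median level of -4.60. Npy2r was the brightest at 0.01 ± 0.16, followed by Hcrtr1 at -2.50 ± 0.12 and Npy1r at -2.76 ± 0.16. The melanocortin receptor genes Mc3r (-4.50 ± 0.13) and Mc4r (-4.52 ± 0.17) were at like levels. Lepr, the leptin receptor gene, varied more, from -5.95 in rat 4 to -4.95 in rat 1 (-5.34 ± 0.45). The genes that cut and pack peptides ranged from bright to dim. All 13 of its genes with a probe were detected, at a median level of 2.18 and a median SD of 0.07, led by the granins Scg2 (4.19 ± 0.10), Chgb (4.10 ± 0.01) and Scg5 (3.98 ± 0.04), by Vgf (3.46 ± 0.09) and by the carboxypeptidase Cpe (3.10 ± 0.04). Chga, another granin gene, stood at -0.43 ± 0.13, and the prohormone convertase genes Pcsk2 (-2.22 ± 0.10) and Pcsk1 (-3.02 ± 0.07), whose enzymes make the first cuts, close to or below the median of all detected genes.

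Transcription factors that pattern the hypothalamus were detected for 22 of 25 genes with a probe, mostly at low signal (median -4.72). Dlx1 (-0.23 ± 0.16), Lhx8 (-1.12 ± 0.07), the mammillary gene Foxb1 (-1.49 ± 0.23) and Nkx2-1 (-1.49 ± 0.06), which is needed to form the hypothalamus, were among the brightest. Sim1, needed for paraventricular neurons, stood at -3.95 ± 0.19. Inhibitory and excitatory markers were both present, with Gad1 at 2.89 ± 0.09 and the subcortical glutamate transporter gene Slc17a6 at 2.47 ± 0.17. The cortical transporter gene Slc17a7 was above background in no rat (-10.06 ± 0.32).

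Glial and endothelial genes were all detected. All 12 astrocyte, 10 oligodendrocyte, 8 precursor, 11 microglial and 10 endothelial genes with a probe were detected in every rat. The mean over the astrocyte list varied by 0.03 (SD) among rats, over the microglial list by 0.05, over the oligodendrocyte list by 0.06 and over the endothelial list by 0.06. A list mean averages out its members: single endothelial genes had a median SD of 0.15, and 8 of 10 exceeded the median of all genes. Agt, which encodes angiotensinogen, was among the brightest astrocyte genes at 5.22 ± 0.12, and Gfap the least steady of them (-1.99 ± 0.38). The complement gene C1qb of microglia stood at 1.76 ± 0.06 and the endothelial junction gene Cldn5 at -0.89 ± 0.09. Ependymal and tanycyte genes, which line the third ventricle, were detected for 10 of 10 with a list SD of 0.13. Genes of perivascular macrophages and leukocytes were detected for 6 of 10 with a list SD of 0.31, and rat 4 was lowest for 4 of the 6.

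The steadiest genes at a level of 0 or more spanned a few hundredths of a log2 unit. Ppp6r1, a phosphatase regulator, ran from 1.09 to 1.11 (SD 0.008), and Dstn, an actin-severing factor, from 1.67 to 1.70 (SD 0.010). Chgb, a secretory granule protein, ran from 4.08 to 4.11 (SD 0.013). Sft2d1, M6pr, Ythdf2, Tmbim6, Qars1, Ttbk2 and Sptssa completed the 10, with SDs from 0.012 to 0.016. The 10 were picked for their small SD, so a larger SD in any other gene of that signal says nothing. Common reference genes had a median SD of 0.06, beside 0.10 over all detected genes, and 2 of 14 exceeded the latter. They were bright, at a median level of 3.57, and all detected genes at a level of 2 or more also had a median SD of 0.06. Among them Pgk1 stood at 4.93 ± 0.04, Gapdh at 4.13 ± 0.03, Actb at 3.01 ± 0.04 and B2m at 2.79 ± 0.08. Immediate early genes, which follow recent neuronal activity, included both steady and less steady genes, with Jun at 0.33 ± 0.02, Arc, a synaptic gene, at -2.78 ± 0.10, Fos at -5.19 ± 0.24 and Nr4a1 at -2.39 ± 0.23. Of 16 detected clock genes, 7 had an SD above the median of all detected genes, among them Csnk1e (-3.60 ± 0.25), Clock (-5.51 ± 0.21) and Per1 (-0.68 ± 0.15). Dbp (2.10 ± 0.08), Cry2 (1.81 ± 0.09), Nr1d2 (0.83 ± 0.09) and Per2 (-3.22 ± 0.05) lay below that median. Yet Dbp, Cry2 and Nr1d2 exceeded the median SD of 0.06 for genes of like signal. Of the immediate early list 13 of 16 genes were detected, of the clock list 16 of 17, and of the list of steroid and thyroid hormone action 9 of 12, where the thyroid hormone receptor gene Thra led at 3.84 ± 0.04.

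Over all 12571 detected genes the median SD among rats was 0.10, with 5% of genes below 0.04 and 5% above 0.37. The SD depended on signal. It had a median of 0.20 for genes below a level of -4 and of 0.06 for genes between 0 and 2. For 701 detected genes whose probe is spotted 10 times, the median SD between single spots of 1 array was 0.05. The SD between rats, taken on the average of those spots, had a median of 0.06 and was the larger for 478. Averaging lowers spot noise, so the 2 SDs are unlike measures and do not show how much of the rat SD is spot noise. An SD of 0.5 or more was found for 289 genes (2.30%), and 19 of these lay at a level of -2 or more. With normexp background correction the 289 became 40, and 15 of the 30 genes of largest SD stayed in the top 30. In 12 of the 19 the lowest levels were in rats 3 and 4, and in 5 in rats 3 and 5, beside 11.7% and 8.20% of all detected genes. Over all detected genes a given rat was the highest for 9.96% to 20.3% and the lowest for 13.9% to 19.7%, which is the background for the counts of rats below. At a level of 0 or more there were 7, namely Ttr, Ptgds, Prkcd, Igf2, Col1a2, Rn5-8s and Cck, and the following paragraphs describe them with the genes that shared their order of rats. The 30 largest SDs ran from 1.96 (Ttr) to 0.95 (Bmp7), with Sostdc1 just outside at 0.93. Without rat 3, 17 of these 30 stayed in the top 30.

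**Figure D3:**
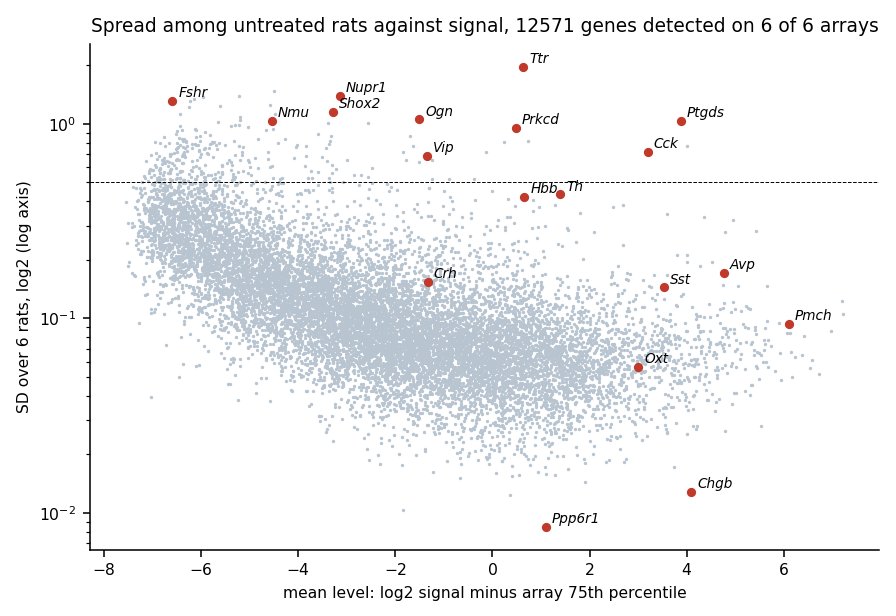
SD over 6 control rats (y axis, log scale) against mean level (x axis, log2 units) for the 12571 detected genes, with named genes in red and a dashed line at 0.5. Dim genes scatter more, and Ttr has the largest SD of all (1.96), with Ptgds, Prkcd and Cck also far above most genes of like signal.

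A set of variable genes that includes Ptgds, Igf2 and collagens was lowest in rats 3 and 4. Ptgds, whose enzyme makes prostaglandin D2 and is abundant in the leptomeninges, stood at 4.41, 4.75, 2.60, 2.51, 4.62 and 4.38 in rats 1 to 6. Rats 3 and 4 did not overlap the others and lay up to 4.74-fold below. The collagen gene Col1a2 stood at 0.52, 0.73, -0.72, -0.83, 1.07 and 0.65, and the growth factor gene Igf2 at 0.95, 1.37, -0.02, -0.48, 1.63 and 0.89, both again lowest in rats 3 and 4. Nupr1, a stress-induced chromatin protein gene, showed the widest of these gaps, with -2.30, -2.13, -4.98, -4.93, -2.21 and -2.35. Further genes of the 30 with that order were Sult6b1, Upk1b, Aldh1a2 (retinoic acid synthesis), Foxc2 (a mesenchymal transcription factor), Ogn (a matrix proteoglycan), Slc22a6, Ccl19, RT1-Da (antigen presentation), Il17re, LOC102551142, Slc6a20a and Bmp7. In a list of leptomeningeal genes written after these values were seen, 21 of 22 had a probe and were detected, and rats 3 and 4 were the lowest for 20 of the 21. Its mean stood at -3.72 and -3.73 in rats 3 and 4, and no lower than -2.43 in the others. Because the list was chosen on these rats, that count supports nothing. In the list of mural cell and fibroblast genes, 12 of 12 were detected, and rat 4 was lowest for 9. There 10 of 12 genes had an SD above the median of all detected genes, while the pericyte genes Pdgfrb (-2.67 ± 0.06) and Kcnj8 (-2.23 ± 0.07) varied little. The matrix genes Col1a1 (-1.63 ± 0.77), Dcn (-2.48 ± 0.60) and Lum (-7.14 ± 0.65) were lowest in rats 3 and 4, as Ptgds was. So, with smaller SDs, were Acta2 (-3.48 ± 0.24) and Myl9 (-1.90 ± 0.22) of the same list. For Acta2, rat 5 (-3.65) lay close to rat 3 (-3.69). In Ptgds and the matrix genes, rats 5 and 6, on the same slide as rats 3 and 4, were not low. In such bulk tissue, fewer cells of a type and less RNA per cell cannot be told apart.

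The largest differences between untreated rats were in hormone subunits of the pituitary, and the same rats 3 and 4 were low. Cga, which encodes the alpha subunit shared by thyroid-stimulating and gonadotropic hormones, stood at 2.10, 1.48, -4.02, -7.92, 1.12 and 2.51. In rat 4 it was not well above background, so Cga was outside the order of detected genes. In this processing rat 6 exceeded rat 4 by 1372-fold, taking in rat 4 the higher of its own signal and the lowest signal well above background on that array. Tshb, the beta subunit of thyroid-stimulating hormone, stood at -0.07, -1.30, -8.31, -10.09, -2.38 and 0.12, was above background in 4 of 6 rats, and differed by 332-fold on the same terms. Both spans shrink with normexp background correction, which lifts dim signal, so neither fold is a lower bound. Cga then ran from -4.75 (rat 4) to 2.40 (rat 6), and Tshb from -5.12 (rat 4) to -0.09 (rat 6). Nmu, which encodes neuromedin U and is made in the pars tuberalis as well as in neurons, stood at -3.64, -4.30, -5.78, -5.72, -4.49 and -3.29. Of 5 pars tuberalis genes listed after the values were seen, Cga, Tshb and Nmu, which had prompted the list, were lowest in rats 3 and 4. The melatonin receptor gene Mtnr1a (-6.12 ± 0.52) and Eya3 (-0.22 ± 0.08) had other pairs of lowest rats. Of other anterior lobe genes, Prl, which encodes prolactin, and Ghrhr were above background in no rat and Gh1, which encodes growth hormone, in rat 4 only, so their order among rats could not be read. Lhb, the luteinizing hormone subunit gene, was at -3.47 ± 0.13 and the transcription factor gene Pou1f1 at -5.36 ± 0.16. The probes of Pitx1, a transcription factor gene of the pituitary, disagreed. The brighter stood at -1.85 ± 0.16, and the dimmer at -4.01, -4.38, -7.92, -9.74, -4.42 and -3.45, above background in 4 of 6 rats and again lowest in rats 3 and 4. The pituitary list had 4 of its 10 genes with a probe detected in every rat, and its mean over all 10 ran from -6.17 (rat 4) to -4.25 (rat 1), with an SD of 0.80. Over the 4 detected genes alone, which leave out Cga and Tshb, that SD was 0.05. Cdh1, an epithelial cadherin gene named after its values were seen, stood at -4.14, -3.90, -9.76, -8.45, -3.94 and -4.40, so that rats 3 and 4 were low there too. The part that meningeal or pars tuberalis tissue in the dissected block had in these values was not tested.

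Rat 3 alone carried a high signal of several choroid plexus genes. Ttr, which encodes the thyroid hormone carrier transthyretin, stood at -0.07, -0.45, 4.55, -0.76, 0.11 and 0.45, a 39.8-fold span that was the widest of any detected gene. Sostdc1, a secreted signalling inhibitor of the choroid plexus, stood at -2.80 in rat 3 and between -5.41 and -4.79 in the others. Of 8 detected choroid plexus genes out of 12, rat 3 was highest for 7, including Folr1 (-2.38, others -3.34 to -2.92), Kcne2 (-2.95, others -3.86 to -3.44) and Steap1 (-4.92, others -6.23 to -5.74). The sizes differed: Enpp2 (0.25 in rat 3, others 0.01 to 0.24) and Aqp1 (-1.74, others -2.27 to -1.74), which other brain cells make too, exceeded the next rat by very little. Otx2, the other detected gene, was highest in rat 1 (-2.11, rat 3 -2.21). The dimmer probe of Kcne2 stood at -6.01 in rat 3 and higher, at -5.56, in rat 1. Kcnj13, not detected in every rat, went against the pattern. It stood at -4.89, -4.58, -5.56, -7.86, -4.42 and -4.95, so rat 3 was lower than all but rat 4, which was below background.

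Rat 5 was low in thalamic genes. Prkcd, which encodes protein kinase C delta and marks relay nuclei of the thalamus, stood at 1.38, 1.13, 0.09, 0.83, -1.25 and 0.66. Gbx2, a transcription factor of developing thalamus, stood at -0.33, -0.89, -1.46, -1.06, -2.26 and -1.44, and Shox2, another, at -1.91, -2.57, -3.70, -2.97, -5.28 and -3.32. Rat 5 was the lowest for 8 of 10 detected genes of the thalamus list (Shox2 is not on it) and rat 1 the highest for 8, with both true of Ramp3, Lef1, Plekhg1, Slitrk6 and Zic1. The list mean was -1.49 in rat 1 and -2.53 in rat 5. Calb2 (3.04 ± 0.10) and Tnnt1 (0.41 ± 0.22) of the same list were not lowest in rat 5. Cck, which encodes cholecystokinin and is strongly made in thalamus and cortex as well as in hypothalamus, was likewise highest in rat 1 and lowest in rat 5, at 3.98, 3.79, 3.01, 3.34, 1.96 and 3.09. Slc17a6, the glutamate transporter gene of thalamus and hypothalamus, was also highest in rat 1 (2.71) and lowest in rat 5 (2.20). Rn5-8s, a ribosomal RNA named after its values were seen, ran from 2.77 in rat 5 to 5.03 in rat 1. Whether more thalamus in a block accounts for these values was not tested. Striatal and cortical lists varied less, with an SD of the list mean of 0.03 and 0.19 beside 0.36 for the thalamus.

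Blood RNA differed as well. All 7 detected erythrocyte genes out of 8 were highest in rat 5 and lowest in rat 4. The globin gene Hba-a1 stood at 5.34, 5.35, 5.44, 5.14, 5.98 and 5.38 (5.44 ± 0.28) and Hbb at 0.53, 0.49, 0.58, 0.26, 1.48 and 0.61. Alas2, which starts haem synthesis in red cells, stood at -1.93 in rat 5 and between -2.89 and -2.54 in the others. Most endothelial genes did not share that order. Of 10, 5 were lowest in rat 5, among them Cldn5 at -1.02, and 2 were highest there. Those 2 were Tek (-0.68, others -1.34 to -1.23) and Kdr (0.49), and Kdr was also lowest in rat 4 (0.08), as the erythrocyte genes were.

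**Figure D4:**
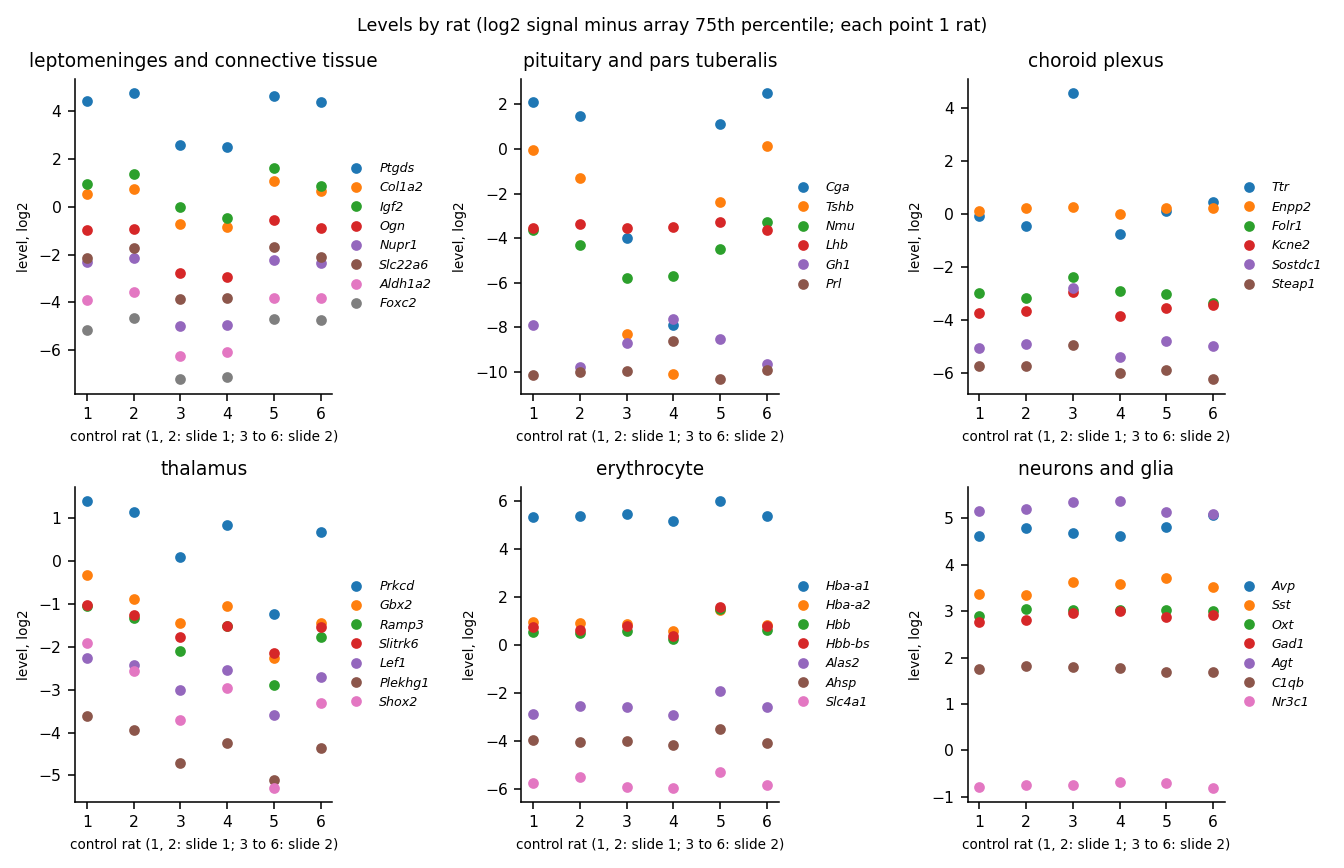
Level (y axis, log2 units) of selected genes in each of the 6 control rats (x axis), 1 point per rat, in panels for leptomeninges, pituitary and pars tuberalis, choroid plexus, thalamus, erythrocytes, and neurons and glia. Rats 3 and 4 are low in the first panel and in Cga, Tshb and Nmu, rat 3 is high in the choroid plexus genes Ttr and Sostdc1, rat 5 is low in the thalamus panel and high in the erythrocyte panel, and the last panel is nearly level.

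Several dopamine genes were highest in rat 2, as were 5 of 9 detected genes of the monoamine list, beside 19.9% of all detected genes. Th, which encodes the enzyme that limits catecholamine synthesis, stood at 1.45, 2.20, 1.45, 1.13, 1.20 and 0.97. Slc6a3, the dopamine transporter gene and a marker of midbrain and some hypothalamic dopamine neurons, stood at -4.92, -3.96, -6.42, -6.30, -6.36 and -7.73, the last below background. Ddc (1.34) and Slc18a2 (-0.54), needed to make and to store dopamine, were also highest in rat 2. Dbh, which turns dopamine into noradrenaline, was above background in rat 3 only, and Hdc, the histamine-making gene of the tuberomammillary nucleus, lay at 0.42 ± 0.17. The cholinergic genes Chat (-2.02, others -2.69 to -2.51) and Slc5a7 (-3.19, others -3.77 to -3.49) were highest in rat 6, as were 5 of 7 genes of their list.

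Vip stood at -0.46, -0.68, -2.23, -1.91, -1.41 and -1.41, a 3.41-fold span. The 2 rats of slide 1 were the highest, so that rat and slide cannot be told apart here. Of 8 suprachiasmatic genes listed after the values were seen, 7 were detected, and the 8 had a median SD of 0.35. Vipr2, the receptor gene of Vip (-2.32 ± 0.07), Grp (-1.86 ± 0.08) and Lhx1 (-3.04 ± 0.07) varied less than the median of all genes. Sox14 (-5.93 ± 0.91), Rgs16 (-5.14 ± 0.38) and Six6 (-6.39 ± 0.33) varied more, and Rgs16, like Vip, was highest in rats 1 and 2. Rgs16 is also on the thalamus list and was lowest in rat 5 (-5.75), whereas Vip was lowest in rats 3 and 4. Over the 289 genes with an SD of 0.5 or more, the 2 rats of slide 1 were the highest pair for 122 (42.2%), beside 16.6% of all detected genes. A test of slide 2 against slide 1 with limma called 0 of 30691 probes (0%) at an adjusted p under 0.05. The smallest adjusted p was 0.0910, and 4765 probes passed 0.05 before adjustment. With normexp background correction 1385 were called, with quantile normalization 3, without rat 1 24, without rat 2 3, and with dim probes kept in 198 of 45598. The number of calls thus depended on the background correction, the normalization, the filter and on rats 1 and 2, and differences between these rats and the others carry that limit. In the groups of genes above, only the differences among rats 3 to 6 lie within slide 2. Prkcd, Gbx2, Shox2, Ramp3, Cck and Slc6a3 were, like Vip, highest in rats 1 and 2. The thalamus list had a mean of -1.63 on slide 1 and -2.12 on slide 2. For these genes, the gap between rats 1 and 2 and the others cannot be told apart from slide or scan day.

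Other genes were high in 1 rat without belonging to any list. Of the 30 most variable genes, 11 had 1 rat standing clear above the other 5, and all but Ttr were dim. Fshr, the follicle-stimulating hormone receptor gene, stood at -3.95 in rat 2 and between -7.53 and -6.81 in the others, and Kcng3, Fam228a and Smcr8 were also high in rat 2. Wnt10b stood at -3.58 in rat 3 against -7.07 to -6.48, with Pou6f1 and Atp13a5 high in the same rat. Adamts19 and Tanc1 were high in rat 6 and Ifna5 in rat 1. Atp12a was high in rats 3 and 6. LOC102554374, an unannotated locus, stood at -3.41 in rat 1, -5.39 in rat 4 and between -6.91 and -6.64 in the others. Each single high value rests on 1 array.

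The same genes were then read in the 12 rats of the other groups, which the choice by control spread had not used. To keep slides apart, the SD was taken within slide, and its median over detected genes was 0.08 in control, 0.10 in stress and 0.08 in stress with exercise rats. Of the 30 genes, 19 lay in the top 5% of all detected genes by within-slide SD in stress rats and 24 in stress with exercise rats. Of the 11 with 1 rat apart, 4 and 5 did so, and of the other 19, 15 and 19. Many of the 30 are dim, and dim genes have larger SDs, so 5% is not the share for genes of like signal. That share was not taken. Ttr had a within-slide SD of 2.77 in stress and 0.75 in stress with exercise rats, Prkcd of 1.27 and 1.24, and Shox2 of 1.33 and 1.35. Ptgds had 0.42 and 0.60, and Nupr1 0.43 and 0.84. Fshr had 0.25 and 0.27, and Pou6f1 0.21 and 0.15, both below the upper 5% of detected genes in those groups, which began at 0.36. Since the 30 were chosen for their control spread, their larger SD in control rats says nothing about the group.

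**Figure D5:**
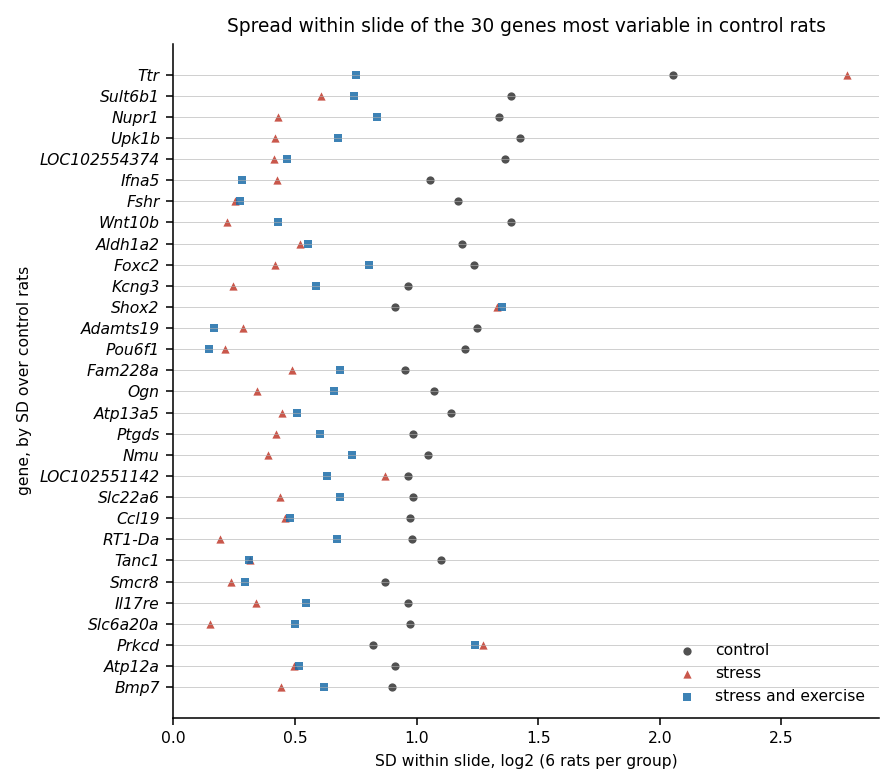
SD within slide (x axis, log2 units) of the 30 genes with the largest SD among control rats (rows), in control, stress, and stress and exercise rats, 6 rats per group. Prkcd, Shox2 and Ttr have the largest values in stress rats (1.27, 1.33 and 2.77), whereas Fshr, Adamts19 and Pou6f1 lie under 0.30 in both other groups.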

How the data were processed

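Hypothalamic RNA of 18 rats was hybridised to 18 one-colour arrays, of which the 6 control arrays are described. The deposited values are processed signal intensity per spot, made by the authors' scanner software (Feature Extraction 12.1.0.3 per the file headers, 9.1 per the submitters' processing notes). For each array, log2 intensity minus the 75th percentile over 58717 non-control spots was taken, spots of 1 probe were averaged, and a gene was represented by its brightest probe. The level was averaged and its SD taken over 6 rats, and a gene was detected where the well-above-background flag was set on all arrays considered. The authors' deposited value table, linear intensity at a constant ratio to the processed signal of each array, was taken to log2 as an alternative. Names came from the scanner files and RefSeq (GRCr8): 21220 of 45598 probes had 1 symbol and 24378 none. Named were the 30 genes highest in level, the 30 highest in SD among detected genes, the 10 steadiest at a level of 0 or more, and members of 31 lists. Members and lists were chosen with earlier results of these data known, and 3 further lists (leptomeninges, pars tuberalis, suprachiasmatic nucleus) after the values were seen. The slides were compared with limma 3.58.1 (R 4.3.3; Benjamini-Hochberg adjustment, probes well above background on at least 5 arrays), tested on simulated data. The number of arrays limits the precision, and 1 rat per array means that SD holds both animal and array error. Some genes are not reported here.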

Additional observations from a re-analysis of the deposited data

Results flagged for a closer look

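Of 205 genes named, 28 had 1 control rat far from the other 5 by Dixon's criterion for 6 samples, as did 614 of all 12571 detected genes (4.88%). Chance gives about 1 in 20, and many of the named genes were chosen for a large SD, so their share is no result. None of the 34 list means met the criterion. In rat 3, Ttr stood at 4.55, Sostdc1 at -2.80, Wnt10b at -3.58, Pou6f1 at -2.23 and Atp13a5 at -3.12, all above the other rats, and Qrfp at -6.33 below them. In rat 2, Fshr at -3.95, Kcng3 at -3.84, Fam228a at -3.04, Smcr8 at -4.49 and Sox14 at -4.09 were above the others. In rat 6, Adamts19 at -4.20, Tanc1 at -3.37 and Chat at -2.02 were above, and Crhbp at -4.27 below. In rat 5, the red cell genes Hba-a1 at 5.98, Hbb at 1.48 and Alas2 at -1.93, the endothelial receptor gene Tek at -0.68 and Pcsk1 at -2.87 were above, and Pgk1 at 4.85 below. In rat 1, Ifna5 at -3.48 was above, and Oxt at 2.90, Crhr1 at -4.42 and Pdgfrb at -2.79 were below by under 0.2 log2 units. In rat 4, Per2 at -3.33 and Kcnj13 at -7.86 (below background) were low, and Prl at -8.61 was high but below background in every rat. The cause of each was not tested.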

How the results depend on the processing

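No paired analysis was possible because the results come from 1 group and the replicate numbers tie no control rat to another rat. For Cga, Tshb, Ptgds, Ttr, Prkcd, Hba-a1, Th, Vip, Cck and Nmu, the highest and lowest rats were compared with every rat kept. They were the same with normexp background correction, quantile normalization, the percentile over detected or all probes, the authors' values and the median probe. The percentiles and the authors' values shift each array as a whole, so they test this order weakly. The median probe was the same probe as the brightest for all of these genes but Prkcd, so it was a check for Prkcd only. Runs with 1 rat left out were not compared in this way. Of the 30 genes of highest level, 19 stayed with the median probe per gene, and 29 to 30 when 1 rat was left out. Of the 30 of largest SD, 15 stayed with normexp background correction (on median spot signal, since a mean was not used here), 1 with no filter on dim probes, 3 at a level of 0 or more, 1 with detection on at least 1 array (added after seeing the data), and 17 (without rat 3) to 27 when 1 rat was left out. The 289 genes with an SD of 0.5 or more became 40, 2905, 7 and 1918 in that order of settings, and 265 to 352 when 1 rat was left out. The slide test called 0 probes, against 1385 with normexp (279 higher and 1106 lower on slide 2), 3 with quantile normalization, 198 with no filter, and 0 to 24 (without rat 1) when 1 rat was left out. Mean levels moved by over 1 SD for 336 of 410 genes and 26 of 31 lists with normexp, and for 93 genes and 25 lists with the median probe. The median of all genes shifted by 0.42 with normexp, 2.21 with quantile normalization and 0.92 with the percentile over detected probes. Spread depended on signal, since the median SD was 0.203 below a level of -4 and 0.0614 between 0 and 2. The cause of the changes was not tested.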
